A study of Mus musculus with 6 samples.

Results

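The 10 genes described here encode the subunits of the transcription factor NF-kappaB and proteins that restrain it. They are the precursor subunit genes Nfkb1 and Nfkb2, the transactivating subunit genes Rel, Rela and Relb, the inhibitor genes Nfkbia, Nfkbib, Nfkbid and Nfkbiz, and Tnfaip3. They were chosen by name, with earlier results of these data known, and each matched 1 of the 55487 rows of the deposited count table. RNA was sequenced from lymphocytes of the small intestinal epithelium of wild-type C57BL/6J mice, sorted as live CD3ε+CD45+ cells and split by B220, the CD45 isoform that B cells usually carry. Of the 6 libraries, 3 came from B220+ cells, which the labels call X cells, and 3 from B220- cells, labelled T cells. No library is labelled as treated, no transgene or mutation separates the groups, and an age is not among the labels. Nothing in the labels tells whether replicates are separate mice, so the tests rest on the variation among these 6 libraries, and that variation may be technical.

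NF-kappaB acts as a pair of Rel-homology proteins that bind DNA at kappaB sites. In resting cells the pairs are held in the cytoplasm by IkappaB proteins, whose ankyrin repeats cover the nuclear import signal. Signals from the T cell receptor, TNF receptors, Toll-like receptors and the interleukin-1 family activate the IkappaB kinase, which marks IkappaB for destruction and frees the pair. A slower, non-canonical branch matures the Nfkb2 precursor and releases RelB. Several inhibitor genes are themselves NF-kappaB targets, so the pathway feeds back on itself.

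The 3 B220+ libraries held 11810859, 39591312 and 14173322 counts in replicates 1, 2 and 3, and the 3 B220- libraries held 18773165, 17753655 and 11320363. A gene is termed called where its edgeR adjusted p was under 0.05. Every member had at least 533 counts in every library, so all 10 passed the filter on low counts. The T cell markers Cd3d, Cd3e, Cd3g, Cd247 and Ptprc were abundant in both groups. Their sums were 5301 to 5691 CPM (counts scaled to a common library size) in the B220+ and 5479 to 5698 CPM in the B220- libraries. Of these 5 Cd247 was called lower and the other 4 were not called, while DESeq2 also called Ptprc lower (adjusted p = 0.0392). The B cell markers Ms4a1 and Pax5 had 0 to 6 counts in any library. The 7 B cell markers summed to 247 to 310 CPM in B220+ libraries and 151 to 219.9 CPM in B220- libraries, nearly all from Ighm and Cd79b. Of the 2 tested 0 were called by edgeR. Ighm was called higher with the replicate block (edgeR adjusted p = 0.0950 without the block and 8.41e-07 with it). It was also called higher by DESeq2 (adjusted p = 0.0204) and without the filter on low counts (edgeR adjusted p = 0.00887). The 8 macrophage and dendritic cell markers summed to 822 to 956 CPM in B220+ libraries and 406 to 543 CPM in B220- libraries, mostly Itgax and Fcer1g, with Cd14 and Adgre1 at 0 to 7 counts. Of this list Lyz2 was called lower, Itgax was called higher with the replicate block (edgeR adjusted p = 0.0554 without the block and 1.99e-06 with it), and DESeq2 called Itgax and Fcer1g higher (adjusted p = 1.37e-05 and 0.00127). The 7 epithelial markers summed to 319 to 362 CPM in B220+ libraries and 287 to 352 CPM in B220- libraries, mostly Cdh1 and Epcam, with 0 called by edgeR. Epcam averaged 75.4 ± 6.20 CPM in B220+ cells and 35.9 ± 14.7 CPM in B220- cells, and the groups did not overlap. DESeq2 called Epcam higher (adjusted p = 0.0416, against 0.170 by edgeR). The 5 plasmacytoid dendritic cell markers summed to 341 to 362 CPM in B220+ libraries and 452 to 529 CPM in B220- libraries, mostly Ccr9, with Ccr9 and Bst2 called lower, Bst2 in 2 of the 6 fits without 1 library. In the same list Tcf4 was called higher with the replicate block (edgeR adjusted p = 0.0598 without the block and 0.0106 with it). Siglech, with 3, 40 and 53 counts in B220+ libraries and 1, 0 and 3 in B220- libraries, and Klk1, with 1, 18 and 22 counts in B220+ libraries and 0, 3 and 2 in B220- libraries, did not pass the filter, and without the filter 3 genes of the list were called higher. The part of such cells in the results was not tested. Same-numbered libraries of the 2 groups deviated together from their group means, and a fit with the replicate number as a block is quoted for the members and lists whose calls it changes.

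To place the members on a common scale, CPM were divided by exon length in kb. Tnfaip3, which encodes the ubiquitin-editing enzyme A20 that ends TNF receptor and T cell receptor signalling, stood at the top in both groups, at 355 ± 23.9 CPM per kb in B220+ and 413 ± 34.8 CPM per kb in B220- cells (mean ± SD, n = 3 each). That put it at percentile 99.3 of the tested genes in B220+ and 99.4 in B220- cells. Nfkbia, the gene of IkappaBα, came second, at 120.3 ± 10.1 CPM per kb in B220+ and 166 ± 6.46 CPM per kb in B220- cells. Nfkbid came next, at 51.1 ± 9.18 and 86.7 ± 6.73 CPM per kb in B220+ and B220- cells. Among the subunit genes Rela had the highest level per kb, at 43.8 ± 0.899 CPM per kb in B220+ and 44.6 ± 2.06 CPM per kb in B220- cells. Below it followed Nfkbiz, Nfkb2, Nfkbib and Rel in both groups, and the lowest pair was Relb and Nfkb1, between 13.1 and 16.2 CPM per kb.

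Neighbours in that order were not always separable. In B220+ cells the library ranges of Nfkbid and Rela overlapped, as did those of Nfkbiz and Nfkb2, Nfkbib and Rel, and Relb and Nfkb1. In B220- cells Relb and Nfkb1 were the only neighbours whose ranges overlapped. Nfkbid therefore lay above Rela in every B220- library (79.0 to 91.5 against 43.4 to 47.0 CPM per kb) but not in every B220+ library (41.6 to 59.9 against 43.2 to 44.8 CPM per kb). Exon length counts every annotated exon of a gene once, so a gene with many rarely used exons is placed too low.

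**Figure D1:**
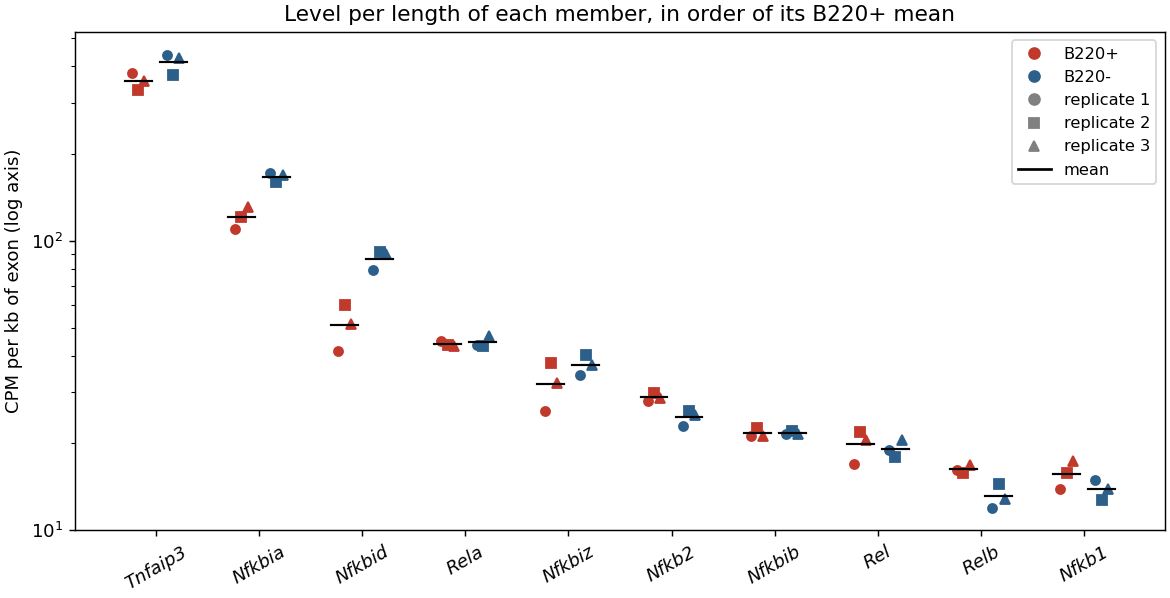
Level of each member as CPM per kb of exon on a log axis, with a point per library and a line at each mean, in order of the B220+ mean. Tnfaip3 stands at 355 CPM per kb in B220+ and 413 CPM per kb in B220- cells, and Relb and Nfkb1 lie lowest.

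Promoter windows of 300 bases, 250 before and 50 from the start site, were held by RefSeq (build GRCm38.p6) for 7 of the 10 members, and 12 windows in all. They were searched on both strands for the 10-letter kappaB consensus, with overlapping matches merged. A match was present in 7 of the 12 windows, belonging to Nfkb2, Rel, Nfkbia, Nfkbid and Tnfaip3, and in none of those of Rela and Nfkbib. Of all 32851 windows 4.51% held a match, and of the 12598 windows of tested genes 5.11%. A window with a match is shown for each of 4 genes, the inhibitor genes Nfkbid and Nfkbia, which fell in B220+ cells, and the subunit genes Nfkb2 and Rel, with the kappaB matches in capitals. Nfkbid had 3 windows, of which 2 held no match. The Nfkbid window shown is chr7:30422156-30422455 on the plus strand, its start site at 30422406 inside the deposited gene model. Its matches lie 226 to 217 and 181 to 172 bases before that site. The Nfkbia window is chr12:55492598-55492897 on the minus strand, with a match 29 to 20 bases before the start. The Nfkb2 window shown, of 3 that each held a match, is chr19:46304487-46304786 on the plus strand, with matches 39 to 29 and 11 to 2 bases before the start. The Nfkb2 windows not shown overlap each other and share a match, so the same site counts in both. The Rel window is chr11:23770920-23771219 on the minus strand, with a merged match 92 to 82 bases before the start.
Nfkbid: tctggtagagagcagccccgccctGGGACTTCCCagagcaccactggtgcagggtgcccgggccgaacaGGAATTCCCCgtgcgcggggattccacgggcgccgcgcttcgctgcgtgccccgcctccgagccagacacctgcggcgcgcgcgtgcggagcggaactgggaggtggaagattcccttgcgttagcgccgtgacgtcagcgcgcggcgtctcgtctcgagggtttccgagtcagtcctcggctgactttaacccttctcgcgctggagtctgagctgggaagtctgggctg
Nfkbia: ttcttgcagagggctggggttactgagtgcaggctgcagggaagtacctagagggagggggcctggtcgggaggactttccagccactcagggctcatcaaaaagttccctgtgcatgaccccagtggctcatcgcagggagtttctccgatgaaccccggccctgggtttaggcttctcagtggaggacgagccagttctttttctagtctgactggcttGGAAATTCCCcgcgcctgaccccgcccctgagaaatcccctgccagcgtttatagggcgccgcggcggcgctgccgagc
Nfkb2: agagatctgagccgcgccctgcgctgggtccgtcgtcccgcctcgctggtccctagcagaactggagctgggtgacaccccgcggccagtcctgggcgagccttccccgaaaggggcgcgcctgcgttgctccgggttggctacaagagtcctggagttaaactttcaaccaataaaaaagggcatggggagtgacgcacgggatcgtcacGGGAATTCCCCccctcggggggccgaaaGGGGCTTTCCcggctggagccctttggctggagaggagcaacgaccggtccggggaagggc
Rel: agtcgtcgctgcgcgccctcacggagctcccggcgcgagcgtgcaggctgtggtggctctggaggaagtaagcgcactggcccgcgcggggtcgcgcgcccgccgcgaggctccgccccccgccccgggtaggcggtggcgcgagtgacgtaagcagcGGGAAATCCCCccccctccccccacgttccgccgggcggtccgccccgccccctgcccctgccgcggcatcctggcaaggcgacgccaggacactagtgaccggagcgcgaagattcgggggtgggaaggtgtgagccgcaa
Of these 4 genes Nfkbid and Nfkbia were called lower, Nfkb2 was called higher with the replicate block but not without it, and Rel was not called. A match is a string of letters and not evidence of binding.

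The comparison sets B220+ cells against the B220- cells of the same epithelium. Among the 10 members, edgeR called 2 lower in B220+ cells, Nfkbid and Nfkbia, and 1 higher, Relb (Benjamini-Hochberg adjusted p under 0.05 over all 14722 genes tested). Of all tested genes 11.1% were called, 5.56% lower and 5.58% higher. The other 7 members were not called. In the blocked fit 6 members were called, with Nfkb2 added as higher and Nfkbiz and Tnfaip3 as lower, against 17.5% of all tested genes (8.6% lower and 8.85% higher). The 6 libraries separated without overlap by group for 4 members, Nfkbid, Nfkbia, Relb and Nfkb2, where 28.1% of tested genes did so.

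**Figure D2:**
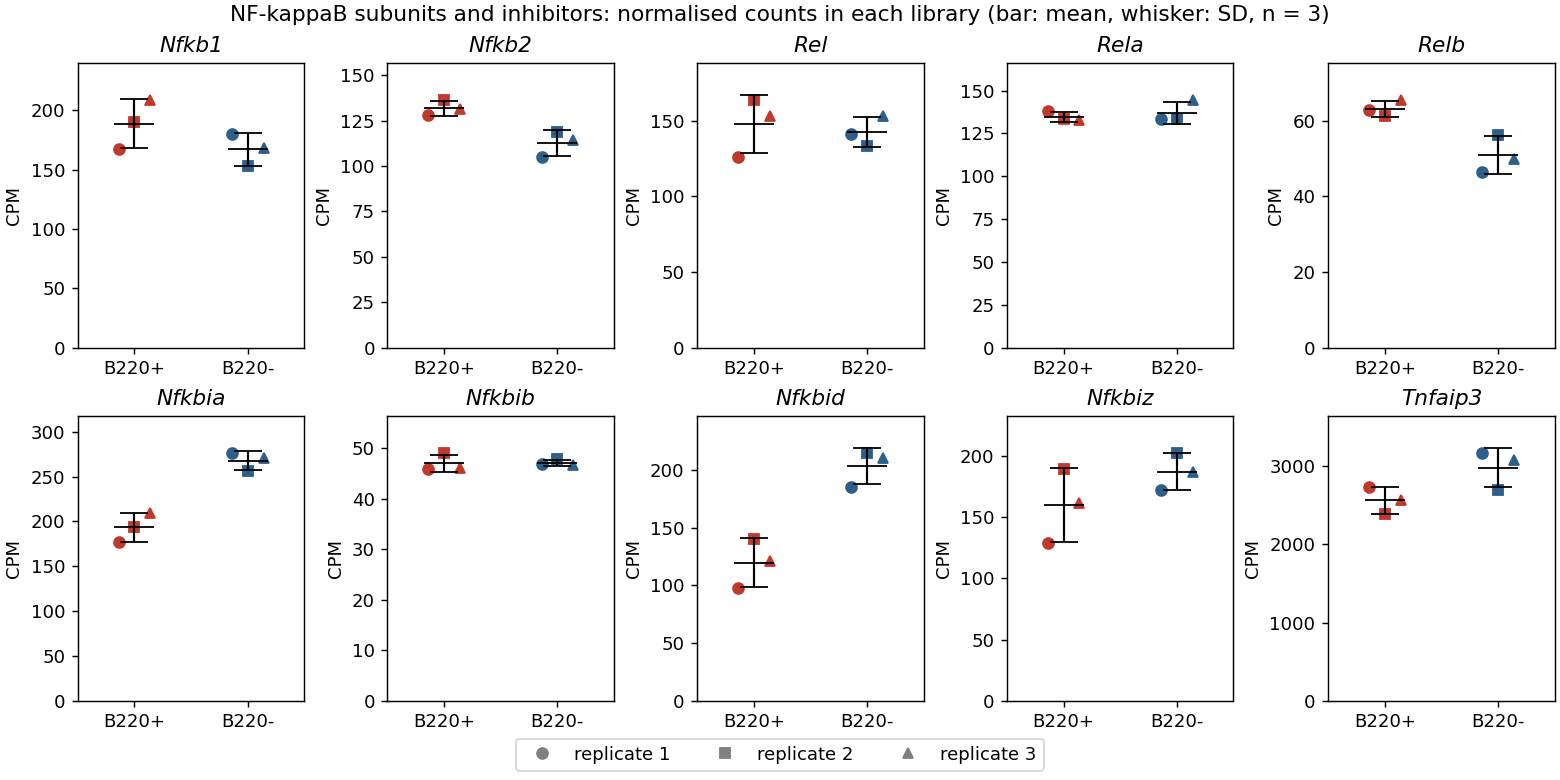
CPM of each member in each library, with B220+ left of B220-, points marked by replicate number, and the mean with its SD (n = 3). Nfkbid lies at 97.6 to 141 CPM in B220+ libraries and 185 to 215 CPM in B220- libraries, and Nfkbib lies near 47.0 CPM in both groups.

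Nfkbid (ENSMUSG00000036931, mm10 chromosome 7, 30421732 to 30428746, plus strand) encodes the atypical nuclear inhibitor IkappaBNS, which acts on chromatin-bound NF-kappaB and helps induce the gene of interleukin-2 in mouse T cells. It had 97.6, 141 and 121 CPM in B220+ libraries 1, 2 and 3, and 185, 215 and 210.2 CPM in B220- libraries 1, 2 and 3. All 3 B220+ libraries lay below every B220- library, and replicate 1 was the lowest of each group. The means were 119.8 ± 21.5 CPM in B220+ cells and 203 ± 15.8 CPM in B220- cells. This was 1.69-fold lower, with a log2 change of −0.76 (SE 0.12; edgeR adjusted p = 0.00466). Between same-numbered libraries the log2 difference was −0.93, −0.61 and −0.79. Leaving out any 1 of the 6 libraries kept the call (edgeR adjusted p 7.43e-04 to 0.0363).

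Nfkbia (ENSMUSG00000021025, chromosome 12, 55489410 to 55492647, minus strand) encodes IkappaBα, the classical inhibitor that is destroyed on stimulation and then made again from NF-kappaB-driven transcription. Its CPM were 177, 194 and 209.8 in B220+ libraries and 276, 256 and 271 in B220- libraries. The groups did not overlap, and the lowest B220- library exceeded the highest B220+ library. The means of 194 ± 16.3 CPM in B220+ cells and 268 ± 10.4 CPM in B220- cells differed 1.38-fold, lower in B220+ cells (log2 change −0.47, SE 0.074; adjusted p = 0.00121 by edgeR). Same-numbered libraries differed by −0.64, −0.40 and −0.37 on the log2 scale. The call held in each of the 6 fits without 1 library (edgeR adjusted p 0.00127 to 0.0111).

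The sorted libraries also differed in markers of helper and recirculating T cells. Of 9 such markers 8 were called lower in B220+ cells (among them Cd4, Cd40lg, Cd5, Cd28, Ccr7, Lef1 and S1pr1), and the 9 summed to 211 to 321 CPM in B220+ libraries and 659 to 961 CPM in B220- libraries. Most of the B220+ sum was Tcf7, the marker not called, at 175 to 289 CPM in B220+ and 232 to 271 CPM in B220- libraries. None of the 9 was at 0 in any library, and Cd4 had 7.63 ± 0.839 CPM in B220+ cells and 177 ± 46.8 CPM in B220- cells. Bulk libraries cannot tell fewer cells of a type from less RNA per cell, so a lower level of Nfkbid or Nfkbia can be either. Dissociating tissue can raise early activation genes. In both groups some of 14 such genes were abundant. Their means ran from 17.2 (Egr2) to 4262 CPM (Hspa1b) in B220+ cells and from 26.1 (Egr2) to 4815 CPM (Hspa1b) in B220- cells. Junb averaged 3118 and 3475 CPM in B220+ and B220- cells. Among the 14, edgeR called 0 higher and 3 lower, namely Cd69, Zfp36 and Dusp1, against 5.58% and 5.56% of all tested genes. Leaving out 1 library lost the call of Zfp36 in 5 of 6 fits and that of Dusp1 in 3 of 6. With the replicate block 1 of the 14 was called higher and 10 lower, against 8.85% and 8.6% of all tested genes. The part of cell mix or of dissociation in the levels and differences of the members, Nfkbid and Nfkbia among them, was not tested.

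Nfkbiz (ENSMUSG00000035356, chromosome 16, 55811375 to 55838899, minus strand) encodes IkappaBζ, an atypical nuclear IkappaB that co-activates secondary response genes and takes part in interleukin-17 programmes. It had 129, 189.7 and 162 CPM in B220+ libraries, against 172, 202 and 187 CPM in B220- libraries. The ranges overlapped, and B220+ replicate 1 was the lowest library. The log2 fold change was −0.22 (SE 0.13, 95% interval −0.52 to 0.081) and the gene was not called (edgeR adjusted p = 0.393). In each same-numbered pair the B220+ library was the lower, with log2 differences of −0.42, −0.094 and −0.21, and with the replicate block the edgeR adjusted p was 0.0141.

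Tnfaip3 (ENSMUSG00000019850, chromosome 10, 19000910 to 19015657, minus strand) had 2734, 2389 and 2568 CPM in B220+ libraries and 3167, 2696 and 3082 CPM in B220- libraries. B220+ replicate 1 lay above B220- replicate 2, so the groups overlapped. Its log2 fold change was −0.22 (SE 0.090, 95% interval −0.41 to −0.024, not adjusted for the number of genes), with an edgeR adjusted p of 0.162. Same-numbered libraries differed by −0.21, −0.17 and −0.26, and with the replicate block the edgeR adjusted p was 0.0240. The 10 members together took 0.366% to 0.380% of counts in B220+ and 0.399% to 0.447% in B220- libraries, most of it Tnfaip3.

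Nfkbib (ENSMUSG00000030595, chromosome 7, 28758251 to 28767512, minus strand), the gene of the second classical inhibitor IkappaBβ, had 45.9, 49.0 and 46.0 CPM in B220+ libraries and 46.8, 47.8 and 46.6 CPM in B220- libraries. The groups overlapped fully, and the 95% interval of the log2 fold change ran from −0.15 to 0.15 (edgeR adjusted p = 0.999). Its model overlaps Sirt2 and Ccer2 on the opposite strand over 42 and 314 exon bases. Whether reads there were kept apart is not known, because the strand setting of the counting is not given.

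**Figure D3:**
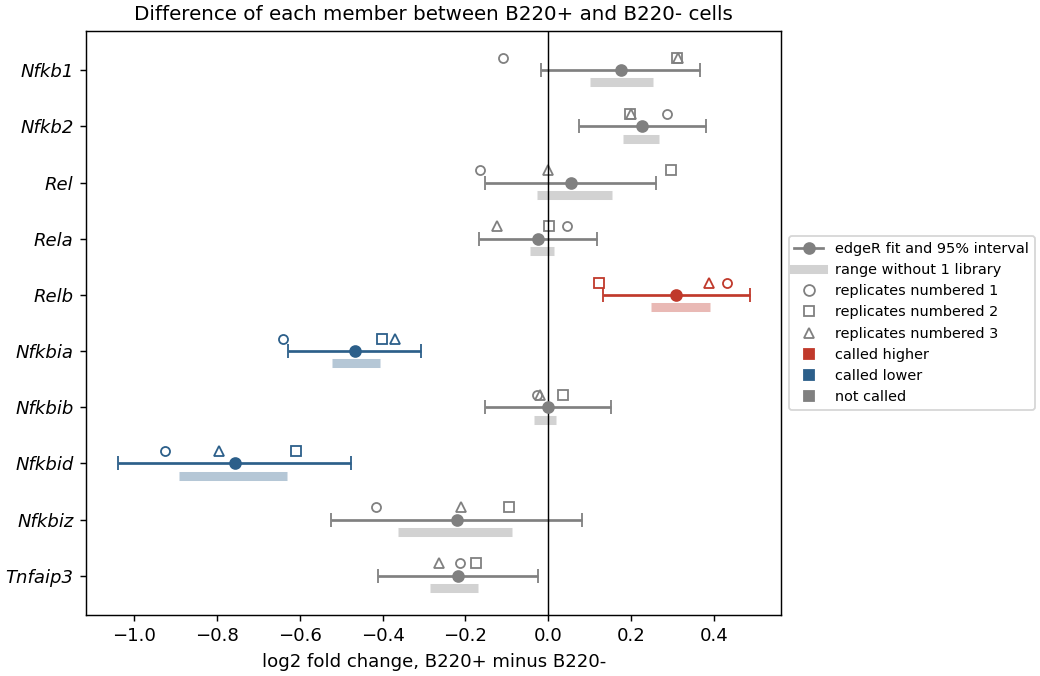
Log2 fold change of each member, B220+ minus B220-, with the edgeR 95% interval, the range over the 6 fits that left out 1 library (pale bar) and the difference between same-numbered libraries (open symbols). Nfkbid (−0.76) and Nfkbia (−0.47) lie lowest and Relb (0.31) highest.

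Relb was the subunit gene that passed the test. RelB (ENSMUSG00000002983, chromosome 7, 19606217 to 19629438, minus strand) pairs with the mature Nfkb2 product and carries the non-canonical branch. Its CPM were 62.7, 61.3 and 65.4 in B220+ libraries and 46.4, 56.3 and 49.9 in B220- libraries. Every B220+ library lay above every B220- library, and B220- replicate 2 came nearest. The means were 63.1 ± 2.07 CPM in B220+ cells and 50.9 ± 4.98 CPM in B220- cells (log2 fold change 0.31, SE 0.082, edgeR adjusted p = 0.0282). The call was lost in 5 of the 6 fits without 1 library, with edgeR adjusted p of 0.0642, 0.0675 and 0.104 without B220+ replicates 1, 2 and 3 and 0.0934 and 0.111 without B220- replicates 1 and 3.

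Nfkb2 (ENSMUSG00000025225, chromosome 19, 46304320 to 46312385, plus strand), whose precursor product holds RelB inactive until it is processed, passed in the blocked fit. It had 128, 136 and 131 CPM in B220+ libraries and 105, 119 and 114 CPM in B220- libraries, with no overlap between the groups. The log2 fold change of 0.23 (SE 0.070) did not pass in the fit without the block (edgeR adjusted p = 0.0571), and the adjusted p was 0.00833 with the replicate block and 0.0498 without B220- replicate 2. Opposite-strand genes Psd and 4833438C02Rik overlap 299 and 531 exon bases of Nfkb2 and had 19.5% and 25.2% of its counts. Whether the counting kept their reads in those bases apart from its own is not known.

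Nfkb1 (ENSMUSG00000028163, chromosome 3, 135584655 to 135691547, minus strand), the precursor of the most common DNA-binding partner in canonical pairs, had 167, 189.6 and 208 CPM in B220+ libraries and 180.3, 153 and 168 CPM in B220- libraries. The groups overlapped, and the log2 fold change was 0.17 (SE 0.088, 95% interval −0.017 to 0.37, edgeR adjusted p = 0.274). The same-numbered pairs disagreed in sign, at −0.11, 0.31 and 0.31.

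Rel (ENSMUSG00000020275, chromosome 11, 23736847 to 23770970, minus strand) encodes c-Rel, the transactivating subunit best known for activating cytokine genes in lymphocytes. It had 126, 163 and 153 CPM in B220+ libraries, against 141, 133 and 153 CPM in B220- libraries. The B220+ libraries lay on both sides of the B220- range, and the log2 fold change of 0.054 (SE 0.094, 95% interval −0.15 to 0.26) was not called (edgeR adjusted p = 0.814).

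Rela (ENSMUSG00000024927, chromosome 19, 5637483 to 5648130, plus strand) encodes the transactivating subunit of the canonical pair. Its CPM were 138, 134 and 133 in B220+ libraries and 133, 133 and 144 in B220- libraries. The coefficient of variation was 2.05% among B220+ and 4.62% among B220- libraries. The log2 fold change was −0.025 (SE 0.066, 95% interval −0.17 to 0.12, edgeR adjusted p = 0.880).

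Summed per kb, the 5 subunit genes reached 119.6, 127 and 126 CPM per kb in B220+ libraries and 112, 114 and 119 CPM per kb in B220- libraries. The 4 IkappaB genes summed to 199, 241 and 235 CPM per kb in B220+ libraries, against 307, 313 and 317 CPM per kb in B220- libraries. The ratio of IkappaB to subunit transcripts was thus 1.66, 1.90 and 1.86 in B220+ libraries and 2.73, 2.74 and 2.66 in B220- libraries. The ratio was lower in each B220+ library than in any B220- library, most of the gap coming from Nfkbia and Nfkbid. It is given as a description of the members, without a test, and leaves out the IkappaB family genes Nfkbie and Bcl3. The IkappaB sum pools the classical inhibitor genes with Nfkbid and Nfkbiz, whose nuclear products can also help to induce genes. The subunit sum holds Nfkb2, whose precursor product restrains RelB, and Nfkb1, divided by the longest exon length of the members. The ratio is thus not a measure of inhibitor against target.

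**Figure D4:**
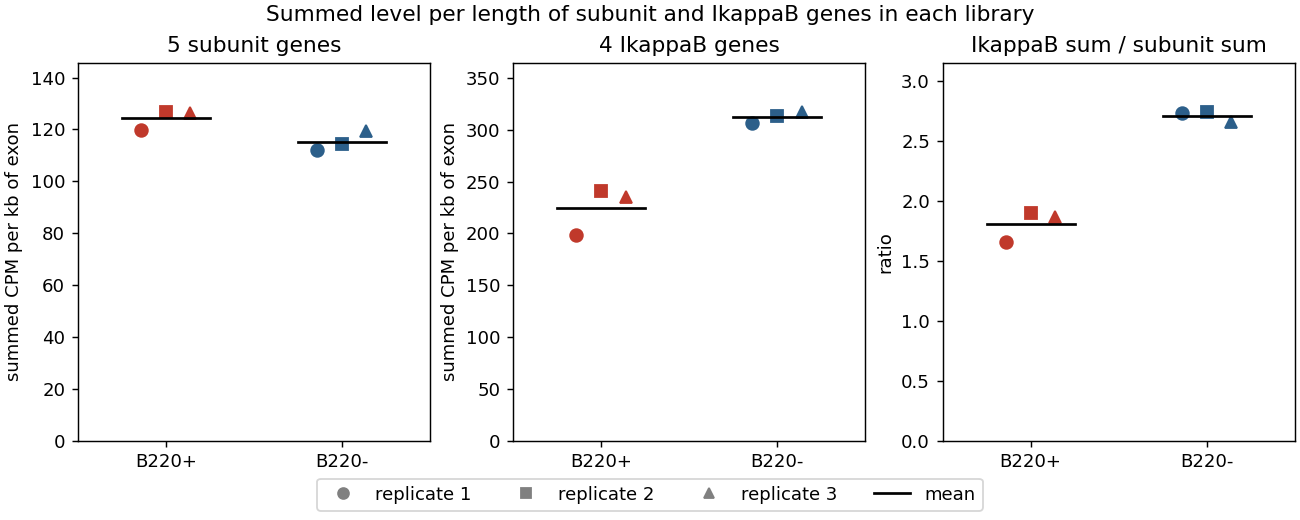
Summed CPM per kb of exon of the 5 subunit genes and the 4 IkappaB genes among the members, and their ratio, in each library, with lines at the means. The ratio lies at 1.66 to 1.90 in B220+ and 2.66 to 2.74 in B220- libraries.

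Upstream of the members, genes that link the T cell receptor to the IkappaB kinase were partly lower. Of 7 genes of this branch 0 were called higher and 3 lower, against 5.58% and 5.56% of all tested genes. In the blocked fit 1 was higher (Map4k1) and 3 lower, against 8.85% and 8.6%. The median log2 fold change was −0.031, against −0.0074 over all tested genes. Malt1, a protease and scaffold that acts downstream of antigen receptors, had 110.2, 113 and 108 CPM in B220+ and 142, 131 and 135 CPM in B220- libraries (edgeR adjusted p = 0.00974). Prkcq, a protein kinase C activated by T cell receptor signals, was lower, with a log2 change of −0.34 (edgeR adjusted p = 0.0153), a call lost without B220+ replicate 1 or 2 (up to 0.0692). Bcl10, an adaptor that binds Malt1, was not called (log2 change 0.036; adjusted p = 0.839 by edgeR).

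The IkappaB kinase itself was not among the called genes. Of 10 genes of the kinase complex and the kinases above it, edgeR called 0 (2 lower with the replicate block, Map3k14 and Ikbke). At an unadjusted p under 0.05 the count was 2, and DESeq2 called 0. The catalytic chains Ikbkb and Chuk had log2 fold changes of −0.076 and 0.078, and the regulatory chain Ikbkg 0.083. Map3k14, the NIK kinase of the non-canonical branch, had 73.0, 78.6 and 76.9 CPM in B220+ and 85.1, 94.4 and 89.7 CPM in B220- libraries, with an edgeR adjusted p of 0.0527 and 0.00917 with the block. Of the 13 genes of ubiquitin editing and linear ubiquitin, which include the A20 partners Tnip1 and Tax1bp1 and the deubiquitinase Cyld, edgeR called 0 (Itch higher with the block, 2 at an unadjusted p under 0.05, and 0 with DESeq2). The 10 nuclear cofactors gave 0 as well (Ncoa1 and Sirt1 lower with the block, 1 at an unadjusted p under 0.05, and 0 with DESeq2).

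Adaptors moved both ways. Among 10 TRAF, cIAP and RIP adaptors 1 was called higher and 2 lower, with a median log2 fold change of 0.011. Over all tested genes the shares were 5.58% higher and 5.56% lower. Traf1, a TNF receptor adaptor that is also an NF-kappaB target, had 169, 185 and 189.7 CPM in B220+ and 258, 239.6 and 248 CPM in B220- libraries (log2 fold change −0.45, SE 0.069, edgeR adjusted p = 9.13e-04). Traf3ip2, the Act1 adaptor of interleukin-17 receptors, was lower at −0.36 (edgeR adjusted p = 0.00936, or 0.0528 without B220+ replicate 3). Traf5 was higher at 0.38 (edgeR adjusted p = 0.0265), which was lost without B220+ replicate 2 or B220- replicate 1 or 3 (up to 0.124). Of 8 tested adaptors of the Toll and interleukin-1 receptors 1 was higher and 0 lower, namely the kinase Irak2 at 0.48 (edgeR adjusted p = 0.00206). With the replicate block 2 were higher, with the adaptor Tirap added (edgeR adjusted p = 0.0630 without the block and 0.0444 with it).

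Receptors that signal through NF-kappaB were called in both directions. Of 8 tested receptors of the canonical branch 2 were called higher and 4 lower, against 5.58% and 5.56% of all tested genes. The median log2 fold change of −1.21 falls in a gap between Tlr1 at −2.51 and Il1rap at 0.088. The list summed to 753 to 845 CPM in B220+ and 606 to 667 CPM in B220- libraries, most of it Tnfrsf1b. The interleukin-18 receptor chains Il18r1 and Il18rap were both lower. Il18r1 had 0.764, 0.932 and 1.56 CPM in B220+ libraries, against 39.5, 26.7 and 31.9 CPM in B220- libraries (edgeR adjusted p = 4.18e-07). Il18rap had 4.18 to 5.31 CPM in B220+ libraries and 20.9 to 33.2 CPM in B220- libraries (edgeR adjusted p = 6.40e-06). Il1r1, the interleukin-1 receptor, reached at most 0.176 CPM in B220+ libraries and 2.72 to 5.51 CPM in B220- libraries, and Tlr1 was lower at a similarly low level. The TNF receptor genes went the other way. Tnfrsf1b, the gene of TNF receptor type 2, had 686, 633 and 607 CPM in B220+ and 459, 489 and 422 CPM in B220- libraries (log2 fold change 0.49, SE 0.077, edgeR adjusted p = 0.00114). Tnfrsf1a, of TNF receptor type 1, was higher at 0.26 (edgeR adjusted p = 0.0268), a call lost in 4 of the 6 fits without 1 library, namely those without B220+ replicate 1 or 2 and without B220- replicate 1 or 3 (up to 0.103).

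Of 8 tested receptors of the non-canonical branch and costimulation 1 was called higher and 2 lower, against 5.58% and 5.56% of all tested genes. Their median was 0.20. With the replicate block 3 were higher (Ltbr, Tnfrsf18 and Cd27) and 2 lower, against 8.85% and 8.6% of all tested genes. Tnfrsf9, the costimulatory receptor 4-1BB, had 105, 86.2 and 90.3 CPM in B220+ and 29.3, 49.5 and 40.9 CPM in B220- libraries (log2 fold change 1.23, SE 0.196, edgeR adjusted p = 0.0113). Its adjusted p was 0.135 with the replicate block and 0.0525 without B220- replicate 3. Tnfrsf4, the OX40 receptor, had 2.29 to 2.90 CPM in B220+ libraries and 6.23 to 7.97 CPM in B220- libraries (edgeR adjusted p = 4.15e-04). Tnfrsf25, of death receptor 3, had 0.0707 to 0.170 CPM in B220+ libraries and 4.04 to 4.55 CPM in B220- libraries, and was also called lower. Ltbr, the lymphotoxin receptor that drives RelB in stromal cells, did not exceed 3.18 CPM in any library.

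**Figure D5:**
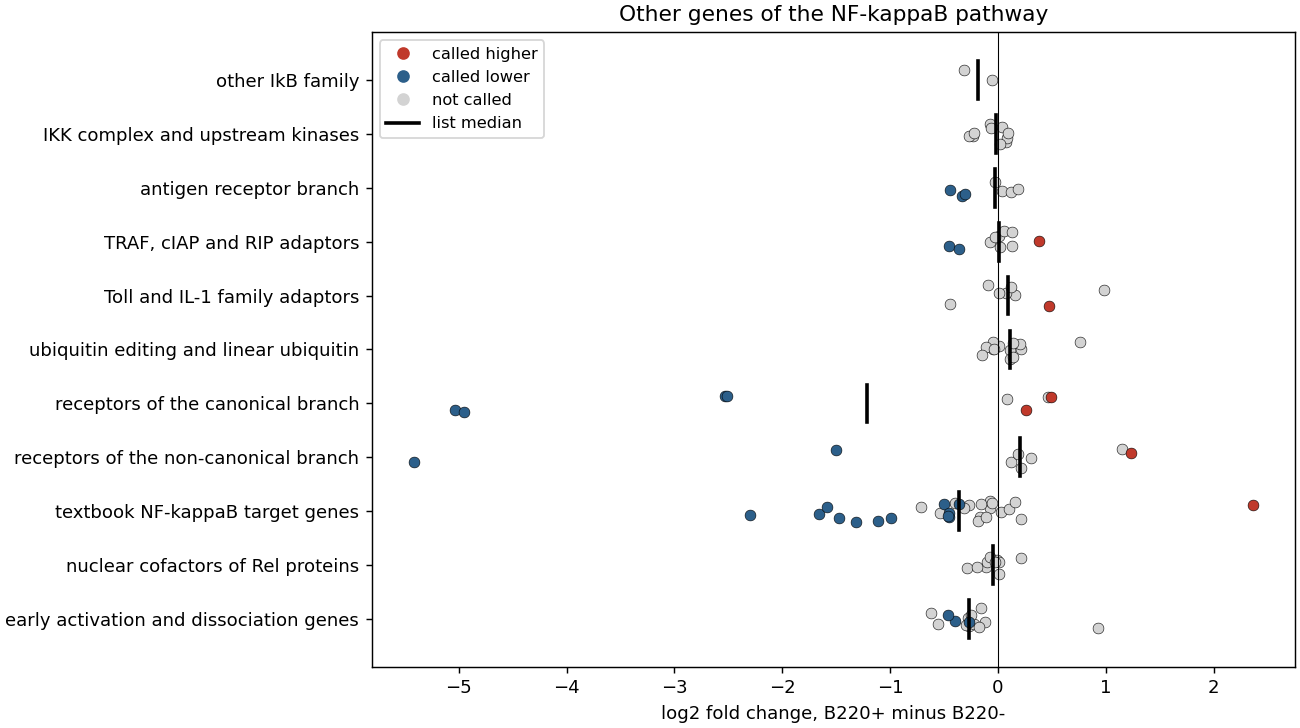
Log2 fold change, B220+ minus B220-, of each tested gene in 11 lists around the members, with a point per gene and a line at each list's median. Points at or beyond −2 are Il1r1, Il18r1, Il18rap, Tlr1, Tnfrsf25 and Il2ra, and the point farthest to the right is Csf2 at 2.36.

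Downstream, 29 of 30 textbook NF-kappaB target genes were tested, of which 1 was called higher and 12 lower, with a median log2 fold change of −0.36. Of all tested genes 5.58% were called higher and 5.56% lower, with a median of −0.0074. The list was chosen with earlier results of these data known. With the replicate block 14 were lower, against 8.6% of all tested genes. The block added Irf1 (edgeR adjusted p = 0.170 without the block and 0.0366 with it) and Bcl3. The 12 were Traf1, Cflar, Gadd45b, Ccl3, Ccl4, Irf4, Il2ra, Tnf, Lta, Ltb, Ifng and Cd69. Il2ra, the high-affinity interleukin-2 receptor chain, had 1.70, 2.17 and 2.62 CPM in B220+ and 9.86, 8.22 and 14.3 CPM in B220- libraries (log2 fold change −2.30, SE 0.24, edgeR adjusted p = 6.20e-05). Irf4, a transcription factor induced by T cell receptor signals, had 26.3, 26.0 and 22.8 CPM in B220+ and 89.4, 66.4 and 82.0 CPM in B220- libraries (edgeR adjusted p = 4.22e-06). Tnf was lower at −1.59 (edgeR adjusted p = 0.0474), which was lost without B220+ replicate 3 and without each B220- library (up to 0.166) and with no filter on low counts (0.123). Lta was lost without B220+ replicate 1 or 2 and without B220- replicate 3 (up to 0.0990). Gadd45b, chosen after its values were seen, was nearly level within each group, at 151 to 159.9 CPM in B220+ libraries and 337 to 339 CPM in B220- libraries. The gene that was higher was Csf2, of GM-CSF, at 9.25 ± 2.97 CPM in B220+ cells and 1.77 ± 0.623 CPM in B220- cells, on at most 39 counts in any B220- library. Antisense to it lies Gm12223, which was also called higher, and whether the counting kept reads of the pair apart where they overlap is not known. Icam1, Birc3, Sod2 and Ccl5 were among the 16 tested targets that did not pass without the block. These genes also answer to other factors, and whether NF-kappaB activity differed was not measured.

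The 2 remaining IkappaB family genes, Nfkbie and Bcl3, were not called. Nfkbie had 71.1, 90.8 and 78.1 CPM in B220+ and 77.1, 90.9 and 82.6 CPM in B220- libraries (edgeR adjusted p = 0.803). Bcl3 had 71.8, 40.3 and 43.6 CPM in B220+ and 94.4, 46.2 and 49.2 CPM in B220- libraries, with replicate 1 highest in both groups. Its log2 change was −0.31 (SE 0.42; edgeR adjusted p = 0.763), and in the blocked fit its adjusted p was 0.0143.

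Nfkbia had the smallest adjusted p of the members, and the genes most like it were sought by the root-mean-square difference between log2 CPM profiles centred on their own means over the 6 libraries. The nearest 3 genes outside the members were Traf1 (0.0285), Gm9512 (0.0319) and Gpr132 (0.0371). Gpr132, a G protein-coupled receptor gene, averaged 201 ± 20.5 CPM in B220+ cells and 281 ± 9.72 CPM in B220- cells. Gm9512 had only 1.65 CPM in B220+ cells and 2.29 CPM in B220- cells and did not pass the test (edgeR adjusted p = 0.356).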

How the data were processed

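Libraries were made with the NEBNext Ultra II Directional kit from PureLink-extracted RNA, per the labels' protocols. The deposited table holds raw counts per gene for 6 libraries, made by the authors on mm10. The submitters' processing notes list HISAT2 2.1.0, featureCounts 1.6.3, Trimmomatic 0.38, FastQC 0.11.7 and SAMtools 1.9. The counting options, its strand setting and its annotation were not given in the sources used. Of 55487 genes 29211 had no count and 14722 passed edgeR's filterByExpr (minimum count 10). CPM were computed from the deposited counts with TMM-scaled library sizes, and exon lengths and coordinates came from GENCODE M21, whose positions matched the table for all 10 members. Differences were tested with edgeR 4.0.16 (R 4.3.3), quasi-likelihood F test, Benjamini-Hochberg over all tested genes, threshold 0.05.

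The labels do not say what a replicate number marks. Deviations from the group means correlated at 0.295, 0.246 and 0.272 between same-numbered libraries, each above 0.1, so the replicate block took the numbers as pairs. Between different numbers they correlated at −0.203 to −0.0675. Deviations within a group cancel out, so those negative values follow from the positive ones and are not added evidence of pairing. The pairing is inferred from these data and enters only the fit with the replicate block. Every other fit, the main one included, used the group alone. No library was a repeat of another. The members and lists were chosen with earlier results of these data known. Genes named were the 10 members, the called genes of each list (up to 6, otherwise the 3 with the largest change in each direction), Csf2, called markers with Cd4, and the 3 genes most like the member with the smallest adjusted p. Some genes that this rule names are not reported here. Alternatives were RLE size factors, no filter, DESeq2 1.42.0, the replicate block and leaving out each library.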

Additional observations from a re-analysis of the deposited data

How the results depend on the processing

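Nfkbia and Nfkbid kept their direction and their call under all 10 alternatives run. Relb was called with RLE size factors, DESeq2, no filter and the replicate block, and over the 6 fits without 1 library its log2 fold change was 0.25 to 0.39 with the call lost in 5. With the replicate block 2569 genes were called, 1303 higher and 1266 lower, and 6 members, since Nfkb2 (0.23, edgeR adjusted p = 0.00833), Nfkbiz (−0.24, 0.0141) and Tnfaip3 (−0.22, 0.0240) passed; the block changed no other member's call. Without the filter Tnfaip3 also passed (−0.22, edgeR adjusted p = 0.0460). The near-zero change of Nfkbib turned sign without the filter (0.00040) and with DESeq2 (0.00084), and ranged from −0.034 to 0.019 without 1 library; Rel ranged from −0.027 to 0.16, Rela from −0.045 to 0.013 and Nfkb2 from 0.18 to 0.27. Without 1 library 970 to 1789 genes were called, 425 to 966 higher and 545 to 823 lower, the fewest without B220+ replicate 2, the deepest library, and 1029 without B220- replicate 3. The number of members called ranged from 2 to 4. Of the 1639 genes called, 1621 were called with the block, 1490 with DESeq2, 1603 without the filter and 1639 with RLE size factors. The cause of these shifts was not tested. Of 340 counts of called list genes over the alternatives, 290 stayed within 1.5 times the count given and 50 did not. Among the 7 members not called, Nfkbiz had the widest 95% interval (−0.52 to 0.081), which limits what 3 libraries a group could show.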
